A study of Mus musculus with 3 samples.

Results

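A small set of CD8 T cells in the tumour-draining lymph node (TdLN) of melanoma-bearing mice carried RNA of several genes that T cells switch on after their receptor is engaged. The set was defined by 5 such genes, Nr4a1, Egr2, Tnfrsf9, Irf8 and Cd83: a cell was taken when at least 3 of them had at least 1 UMI (a unique molecular identifier, which marks 1 captured RNA molecule). A cell also had to have no Cd79a, a B cell gene, and fewer than 3 of the macrophage genes Lyz2, C1qa, C1qb, C1qc, Apoe and Aif1. Of 6265 TdLN cells that passed the quality filter (500 genes or more, and no more than 10% of counts from mitochondrial genes), 78 met the rule, or 1.25% (exact 95% interval 0.985 to 1.55%), out of 18920 filtered cells in 3 libraries. These 78 cells are called receptor-signal cells here after their genes; receptor signalling itself was not measured. They were compared with the other 6187 TdLN cells.

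The study profiled P14 cells, transgenic CD8 T cells that recognise GP33-41, a peptide from lymphocytic choriomeningitis virus (LCMV), on H-2Db, by droplet 3′ single-cell RNA sequencing. Naive P14 cells from TCF-1-GFP reporter mice had been transferred into C57BL/6 mice, genotype WT, that carried B16.Gp, a B16.F10 melanoma line expressing the LCMV glycoprotein; the transfer took place on day 8 of tumour growth. TdLN and blood (PBMC) cells, collected 16 days after the transfer, were CD8 T cells gated as CD45.1+CD44+, and memory P14 cells came from C57BL/6 mice, genotype WT, on day 200 after acute LCMV infection, sorted from the CD45.1+ CD8 T cells by markers that included CD44+, CD127+ and KLRG1-. Each group was 1 library, the number of mice behind it and the tissue of the memory cells are not given in the sources used here, and tumour-infiltrating cells were not analysed here. B16.Gp presents a viral protein as its antigen and all P14 cells share 1 receptor, which limits what the model represents.

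A T cell that meets its antigen on a presenting cell signals through calcium, MAP kinases and NF-kB. Within hours it transcribes early transcription factors of the NR4A and EGR families and IRF4, surface proteins such as 4-1BB (the product of Tnfrsf9) and CD69, and cytokines; it then builds ribosomes, raises glycolysis and divides, while genes of the resting state such as Klf2 and Il7r are turned down. In lymph nodes this happens where dendritic cells present antigen, and XCL1, the product of Xcl1, attracts the dendritic cells that carry its receptor XCR1.

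The TdLN library held 7503 barcodes and 72062695 counts, the PBMC library 6165 barcodes and 49592338 counts, and the memory library 8321 barcodes and 72283532 counts. The filter left 6265, 5652 and 7003 cells, with medians of 9674, 7085 and 9956 UMIs. TdLN shared 17 barcodes with PBMC and 11 with memory before filtering, and none of the 78 receptor-signal cells had a shared barcode. Cells of 1 library are not replicates of an animal, so no p-value is given; the exact intervals cover counting error only.

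The sequences upstream of 4 genes of the set are shown because Nr4a1 and Tnfrsf9 chose the cells, while the rule did not use Xcl1 and Nfkbid, which are described below. Each is 250 bases ending just before a RefSeq gene start on GRCm38.p6, 5′ to 3′ on the gene's strand. Capitals mark matches, on either strand, to 6 motifs: a loose NF-kB site (GGG and CC with any 5 bases between), the strict kB consensus (which the loose site contains), TGANTCA (AP-1), TGACGTCA (CRE), GCGNGGGCG (EGR) and the serum response element. Nr4a1 is at chr15:101266596-101266845, plus strand; Tnfrsf9 at chr4:150927749-150927998, plus strand, before the second of its RefSeq starts; Nfkbid at chr7:30422156-30422405, plus strand, before the second of its RefSeq starts; and Xcl1 at chr1:164935523-164935772, minus strand.
Nr4a1: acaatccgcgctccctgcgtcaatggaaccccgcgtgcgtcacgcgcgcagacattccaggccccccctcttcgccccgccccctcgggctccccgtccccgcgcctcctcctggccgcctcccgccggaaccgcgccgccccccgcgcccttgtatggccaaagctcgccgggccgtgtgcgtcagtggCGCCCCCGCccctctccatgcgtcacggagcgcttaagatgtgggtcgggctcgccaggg
Tnfrsf9: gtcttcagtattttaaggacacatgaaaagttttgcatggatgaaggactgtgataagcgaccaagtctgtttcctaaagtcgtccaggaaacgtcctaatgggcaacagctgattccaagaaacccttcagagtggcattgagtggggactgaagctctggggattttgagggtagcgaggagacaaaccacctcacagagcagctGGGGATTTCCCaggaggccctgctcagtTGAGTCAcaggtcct
Nfkbid: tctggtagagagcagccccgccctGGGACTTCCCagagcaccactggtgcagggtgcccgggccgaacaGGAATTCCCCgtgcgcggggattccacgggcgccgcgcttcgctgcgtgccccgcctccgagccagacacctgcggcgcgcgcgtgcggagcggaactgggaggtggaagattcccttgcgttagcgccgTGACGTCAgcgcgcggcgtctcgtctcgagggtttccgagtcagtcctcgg
Xcl1: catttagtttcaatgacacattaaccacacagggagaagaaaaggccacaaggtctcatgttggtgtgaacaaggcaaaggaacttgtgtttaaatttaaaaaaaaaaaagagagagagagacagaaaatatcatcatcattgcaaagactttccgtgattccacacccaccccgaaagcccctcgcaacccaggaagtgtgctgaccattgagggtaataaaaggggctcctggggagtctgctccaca

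The Tnfrsf9 window held 2 overlapping loose NF-kB matches, which start 43 and 42 bases before the gene start, and a TGAGTCA match 15 bases before it. The Nfkbid window held loose NF-kB matches 226 and 181 bases before the start and a TGACGTCA match 51 bases before it. The Nr4a1 window held a GCGNGGGCG match on the opposite strand, 60 bases before the start, and the Xcl1 window held none of the 6 motifs, which says only that these letters are not in it. Of all 32851 mouse windows of this length, 45.8% held the loose NF-kB site, 6.75% TGANTCA, 1.55% TGACGTCA and 4.70% GCGNGGGCG, while the strict kB consensus was in 0.140% and the serum response element in 0.0609%. Among genes at least 2-fold higher in non-cycling receptor-signal cells (579 with a window), 64.2% held the loose NF-kB site and 5.01% TGANTCA, against 66.2% and 4.72% of the 4001 measured genes with a window. Both motifs were thus about as common upstream of the higher genes as upstream of the measured genes as a whole.

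The rule was met in many combinations. Of the 78 cells, 57 had 3 of the 5 genes, 17 had 4 and 4 had all 5. The commonest of 15 patterns was Tnfrsf9 with Irf8 and Cd83 (18 cells), followed by Nr4a1 with Tnfrsf9 and Irf8 (11 cells). Another 20 TdLN cells had 3 or more rule genes but were left out for Cd79a or macrophage genes. Just outside the threshold, 254 cells had 2 rule genes.

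The levels of the 5 rule genes were set by the choice of cells and are given as a description. Tnfrsf9 (ENSMUSG00000028965, chr4:150914562-150946102 in the GENCODE M21 annotation of GRCm38), which encodes the costimulatory receptor 4-1BB, was at 97.4 CPM (counts per 1000000 counts summed over the cells) in receptor-signal cells and 7.78 CPM in the other TdLN cells, and 63 of the 78 cells had a UMI. Irf8, a transcription factor, was at 91.7 CPM against 12.3 CPM, and Cd83, a surface glycoprotein induced on activation, at 61.7 CPM against 6.41 CPM. Nr4a1, an orphan nuclear receptor, was at 57.4 CPM against 15.2 CPM, and Egr2, a zinc-finger factor, at 29.6 CPM against 6.01 CPM. Counts per cell were low: the highest values were 24 UMIs for Nr4a1 and Irf8, 16 for Tnfrsf9, 10 for Cd83 and 8 for Egr2, and the median was 0 or 1 UMI for each. When each gene was left out and cells were chosen by at least 3 of the other 4, the left-out gene was still higher in the chosen cells: 2.73-fold for Nr4a1 (95% interval 2.08 to 3.52), 2.42-fold for Egr2 (1.61 to 3.51), 7.31-fold for Tnfrsf9 (5.72 to 9.23), 5.90-fold for Irf8 (4.77 to 7.24) and 4.51-fold for Cd83 (3.29 to 6.05). Among cells with at least 16000 UMIs these ratios were 3.40, 2.76, 3.29, 4.43 and 2.19, although above that floor the receptor-signal cells were still the deeper ones (median 31410 against 21214 UMIs).

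The same rule found 0 of 5652 PBMC cells, which allows a share of up to 0.0531% (3 counts of the total, as for the other zero shares; the exact upper limit is 0.0652%), and 2 of 7003 memory cells (0.0286%, 0.00346 to 0.103%). With at least 2 rule genes the counts were 332 of 6265 TdLN cells (5.30%), 11 of 5652 PBMC cells (0.195%) and 13 of 7003 memory cells (0.186%). Depth differs between the libraries, so cells were also thinned to a fixed number of UMIs. At 10000 UMIs the rule held in 28 of 2807 TdLN cells (0.998%), 0 of 2172 PBMC cells and 0 of 3457 memory cells. At 4000 UMIs it held in 10 of 6078, 0 of 5273 and 1 of 6763 cells. Among cells with at least 16000 UMIs it held in 57 of 686 TdLN cells (8.31%, 6.35 to 10.6%), 0 of 275 PBMC cells (which allows up to 1.09%) and 0 of 323 memory cells (which allows up to 0.929%). The TdLN share lay above that of both other libraries in each of these counts, with 1 library per group. At 4000 UMIs the TdLN and memory intervals overlapped (0.0789 to 0.302% and 0.000374 to 0.0824%). Memory cells were sorted for CD127, the product of Il7r, and Il7r was lower in the receptor-signal cells, as described below. The memory sort cannot be told apart from other differences between these libraries. Free RNA in each droplet suspension was not measured.

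**Figure D1:**
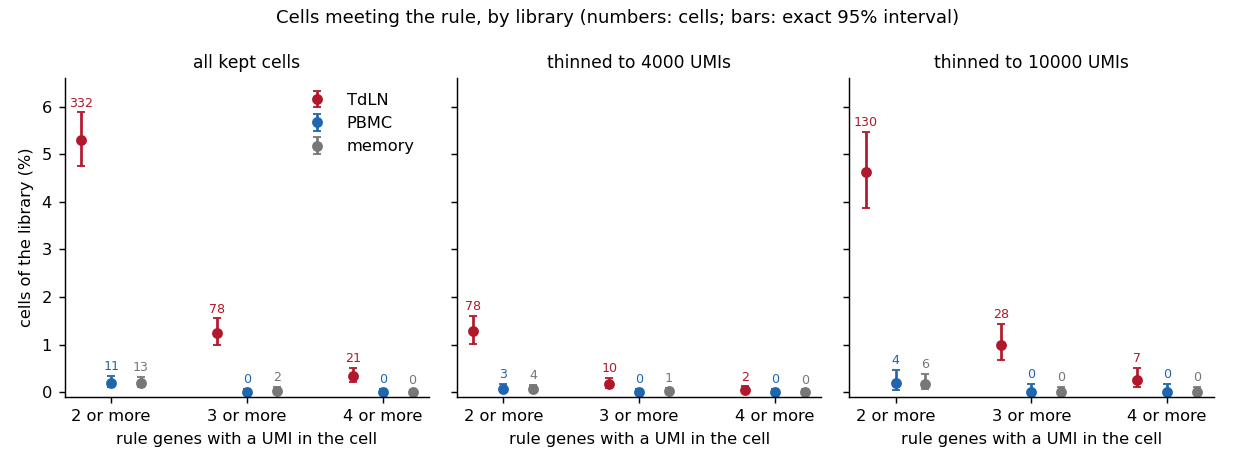
Share of filtered cells (%, y axis) with at least 2, 3 or 4 of the 5 rule genes (x axis) in the TdLN, PBMC and memory libraries, for all kept cells and after thinning to 4000 or 10000 UMIs per cell; points are shares, bars exact 95% intervals and numbers the cells. The 78 receptor-signal cells are the TdLN point at 3 or more in the left panel, where PBMC had 0 and memory 2 cells.

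The receptor-signal cells were CD8 T cells by their RNA. Of 78 cells, 78 had Cd3d, 77 Cd3e, 78 Cd3g, 77 Cd8a and 78 Cd8b1, the CD3 chains and both CD8 chains. No UMI was found in them for Cd4, Foxp3, Ms4a1, Csf1r, Fcer1g, Tyrobp, Itgax, Flt3, Clec9a or Siglech, which mark CD4 and regulatory T cells, B cells, macrophages and dendritic cells. Of 9 B cell genes 5 were at 0, and the summed level of the list was 178 CPM against 287 CPM in the other cells; Ighm alone was at 149 against 219 CPM and Cd79b at 16.5 against 32.0 CPM. Of 8 macrophage genes 5 were at 0 (163 against 278 CPM), and of 10 dendritic cell genes 7 were at 0 (2.17 against 2.5 CPM). The dendritic cell genes that were found were not lower. Xcr1 and Zbtb46 each had 2 UMIs in 2 cells (0.869 CPM, against 0.0297 and 0.446 CPM in the other cells). Ccl22 was found in 1 receptor-signal cell and in no other TdLN cell. Summed levels were also low for NK cell (1.30 against 1.64 CPM), CD4 and regulatory T cell (2.61 against 4.19 CPM), neutrophil (0 against 0.863 CPM), erythroid and platelet (0.869 against 5.24 CPM), melanoma (0.869 against 1.22 CPM) and stromal genes (18.7 against 39.5 CPM), while the gamma delta T cell list was at 311 against 458 CPM, all of it Trdc in the receptor-signal cells. Irf8 and Cd83 are also B cell and dendritic cell genes, and 60 of 76 TdLN B cells (78.9%) had Irf8; the B cells were defined by Cd79a and at least 3 other B cell genes. Cd74, the MHC class II invariant chain, had 56 UMIs in 21 receptor-signal cells (24.3 against 110 CPM), while H2-Aa had none (against 28.5 CPM, at least 21.8-fold lower on a floor of 3 counts). The rule kept cells with Cd79a or at least 3 macrophage genes out of the set, while 221 such cells stayed among the other cells. The lower levels and zeros of B cell, macrophage and class II genes were therefore set in part by the rule. With the same exclusions on both sides the log2 ratio was 1.08 for Cd74, -0.02 for H2-Eb1, -0.36 for Cd79b and -0.46 for Ighm.

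The receptor segments that dominated the library were the same in both populations. Trbv13-3 made up 33 of 36 beta V segment UMIs in receptor-signal cells (91.7%, 77.5 to 98.2%) and 89.1% (87.7 to 90.4%) in the other cells. Trav14 segments made up 35 of 47 alpha V UMIs (74.5%, 59.7 to 86.1%) and 73.4% (71.8 to 74.8%) in the other cells. The intervals overlap widely. The Trbv13-3 share of cells with a UMI was 32.1% of receptor-signal cells and 23.2% of other cells, beside 9.21% of B cells, which should lack it; median depths were 24550, 9632 and 4675 UMIs.

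The receptor-signal cells were deep and often dividing. Their UMIs ran from 7748 to 93009 with a median of 24550, against 9632 in the other cells, and their median number of genes was 3975 against 2267. Since a gene is found more readily in a deeper cell, the rule favours deep cells. Cycling cells, defined by at least 2 of Mki67, Top2a, Birc5, Ccnb1, Pclaf and Rrm2, made up 35 of 78 (44.9%, 33.6 to 56.6%) against 387 of 6187 (6.26%). Among cells with at least 16000 UMIs the cycling share was 61.4% against 42.9%. Ratios are therefore given for all cells, for non-cycling cells (43 against 5800, medians 16918 and 9488.5 UMIs), for cycling cells (35 against 387, medians 43024 and 22960), and for non-cycling cells with at least 16000 UMIs (22 against 359, called deep non-cycling cells). The last comparison is the closest in depth, with medians of 20754 and 19368 UMIs.

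A gene was measured when it reached 20 CPM in the population where it was higher, so a gene under 20 CPM in one population passed only through the other; genes are counted from a 2-fold difference on. Over all cells, receptor-signal cells had 783 of 5070 genes (15.4%) at least 2-fold higher and 259 (5.11%) at least 2-fold lower. Scaling moves this split: it was 578 and 383 with TMM factors, and 587 and 737 of 6808 genes when ribosomal and mitochondrial genes were kept out of the totals. In non-cycling cells the shares were 14.4% higher and 6.01% lower, in cycling cells 2.2% and 1.74%, among cells with at least 16000 UMIs 4.89% and 3%, and in non-cycling cells with at least 16000 UMIs 15.6% and 9.65%. The median log2 ratio over all measured genes was 0.23, 0.16, 0.08, 0.13 and 0.15 in the same order, and TMM factors shifted the log2 ratios over all cells by -0.14. The set differed from the rest of the TdLN more among non-cycling than among cycling cells in these counts, although the 43 and 22 non-cycling cells hold fewer counts and so scatter more. Counts of list genes given below are to be read beside these shares of all measured genes.

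Xcl1, the chemokine lymphotactin (ENSMUSG00000026573, chr1:164931644-164935527), had the second highest ratio of the genes covered by the naming rule, after Bcat1. It was at 439 CPM (413 to 467) in receptor-signal cells and 34.4 CPM (33.0 to 35.8) in other TdLN cells, a ratio of 12.8 (11.9 to 13.8). Per cell the count ran from 0 to 176 UMIs with a median of 1, and 42 of 78 cells had at least 1 UMI, against 18.1% of the other cells. Most of the RNA was in a few cells: the 5 highest held 64.7% of all Xcl1 UMIs of the set, and 16 of 78 cells (20.5%) had 10 or more UMIs against 11 of 6187 (0.178%), whose highest cell had 28. In non-cycling cells Xcl1 was at 912 against 33.5 CPM, a ratio of 27.2 (24.9 to 29.7), and 5 cells held 84.0% of it. In non-cycling cells with at least 16000 UMIs it was at 1062 against 36.9 CPM (28.8-fold, 24.8 to 33.4), and in cycling cells at 212 against 40.1 CPM (5.29-fold, 4.55 to 6.15). After thinning to 4000 UMIs, 29.5% of receptor-signal cells and 9.92% of other cells had Xcl1, against 4% of B cells (9.21% before thinning). Xcl1 was thus higher in each comparison, in a minority of cells with very high counts. Xcr1, the receptor of XCL1 on dendritic cells, had 2 UMIs in the set (0.869 against 0.0297 CPM).

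Some other secreted factors were higher too, each in a minority of cells. Of 9 measured cytokine and chemokine genes 6 were at least 2-fold higher and 1 lower over all cells (list median log2 1.21). In non-cycling cells 4 of 8 were higher and in cycling cells 4 of 8. The shares of all measured genes were 15.4, 14.4 and 2.2% in the same order. Tnf and Lta, under 20 CPM in the other cells, passed the filter only through the receptor-signal cells, so their calls follow from the filter. Over all 15 listed genes, Ccl5 among them, the summed level was 1283 against 1642 CPM. Ccl4, an inflammatory chemokine, was at 132 against 42.9 CPM (3.07-fold, 2.72 to 3.45), with a highest cell of 75 UMIs and no UMI in most cells, and 5.50-fold higher in non-cycling cells. Tnf was at 32.6 against 9.86 CPM (3.31-fold, 2.57 to 4.20), in 29 of 78 cells. Lta, lymphotoxin alpha, was at 23.9 against 7.50 CPM (3.19-fold, 2.37 to 4.22). Ifng, interferon gamma, was at 54.8 against 27.2 CPM (2.01-fold, 1.67 to 2.41), but 1.22-fold (0.761 to 1.87) in non-cycling cells of at least 16000 UMIs. After thinning, Lta was in 15.4% of receptor-signal, 2.67% of other and 12% of B cells, and Tnf in 11.5%, 3.53% and 2%. Ccl5, a chemokine of effector and memory cells, went the other way, at 123 against 766 CPM (6.20-fold lower), and 1 cell held 61.6% of the set's Ccl5 UMIs.

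**Figure D2:**
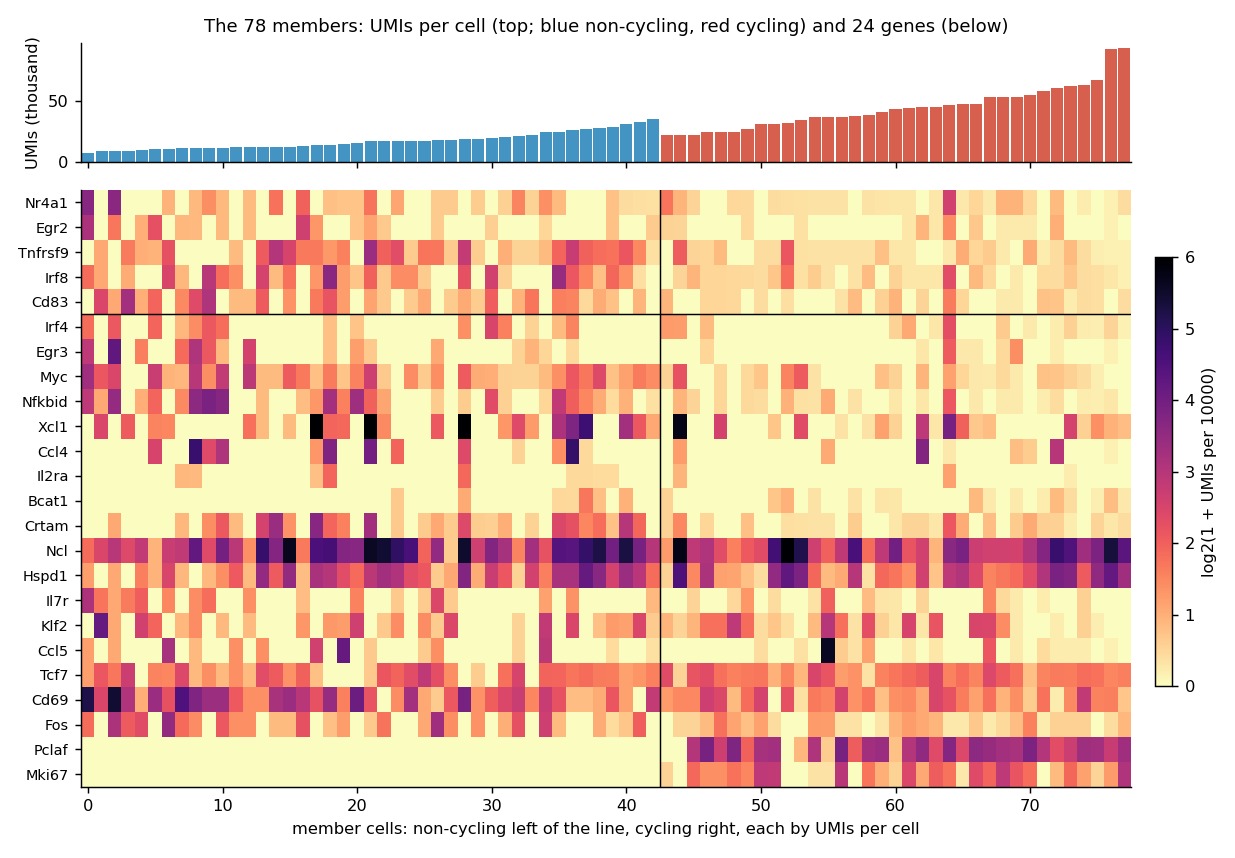
Each column is 1 of the 78 receptor-signal cells, the 43 non-cycling left of the line and the 35 cycling right of it, each ordered by UMIs; the bars give UMIs per cell (axis in units of 1000) and the map log2(1 + UMIs per 10000) of 24 genes, the 5 rule genes at the top. Xcl1 and Ccl4 are dark in a few columns and Ncl is filled in all. Pclaf and Mki67, which helped to define cycling cells, are blank in the non-cycling cells.

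Several transcription factors of the receptor response that the rule did not use were higher. Of 10 measured, 5 were at least 2-fold higher over all cells (median log2 1.07) and 7 of 11 in non-cycling cells (1.56). In cycling cells 2 of 9 were (0.53), and in non-cycling cells of at least 16000 UMIs 5 of 9 were (1.46). The shares of all measured genes were 15.4, 14.4, 2.2 and 15.6% in the same order. Irf4 and Egr3, under 20 CPM in the other cells, passed the filter only through the receptor-signal cells. Their calls thus follow in part from the filter. The counts are no sign of a rise across the list. Over all 12 listed genes, measured or not, the summed level was 512 against 284 CPM. Irf4, which rises with the strength of receptor engagement, was at 40.4 CPM in receptor-signal cells and 7.45 CPM in other cells, a ratio of 5.43 (4.30 to 6.78). It was in 30 of 78 cells, with a highest cell of 18 UMIs, and its ratio was 8.98 (6.42 to 12.3) in non-cycling cells, 2.42 in cycling cells and 5.89 (3.51 to 9.62) in deep non-cycling cells. Egr3, a relative of Egr2, was at 38.7 against 10.5 CPM (3.70-fold, 2.93 to 4.61); in deep non-cycling cells its ratio was 1.38 (0.577 to 2.85), so the difference was not detectable at that depth of counts. Nr4a3 was 2.57-fold higher (1.88 to 3.43) and Nab2, which binds and restrains EGR factors, 2.47-fold (1.97 to 3.06). Myc, which drives growth, was at 195 against 57.3 CPM in non-cycling cells (3.41-fold) and 3.13-fold higher (2.44 to 3.99) in deep non-cycling cells. Batf, an AP-1 partner of IRF4, was at 100 against 43.9 CPM over all cells and 3.97-fold higher in non-cycling cells, but at 74.0 against 75.4 CPM in cycling cells. Thinned shares of cells with Irf4 were 8.97% in receptor-signal cells, 2.30% in other cells and 4% in B cells, against 38.5%, 5.79% and 13.2% before thinning.

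Several genes often read as receptor-response genes differed less. Egr1 was at 46.1 against 37.0 CPM, Nfatc1 at 56.9 against 40.5 CPM and Tox at 34.8 against 36.2 CPM over all cells. In non-cycling cells all 11 measured factors were higher, these 3 by 1.80-fold (1.34 to 2.36), 1.27-fold (0.894 to 1.74) and 1.06-fold (0.711 to 1.53). In deep non-cycling cells Egr1 was at 18.0 against 38.3 CPM, Nfatc1 at 41.9 against 45.9 CPM and Tox at 29.9 against 41.7 CPM. Cd69, an early activation receptor, was at 316 against 387 CPM over all cells, 1.32-fold higher (1.19 to 1.46) in non-cycling cells and 0.806 of the level of other cells in deep non-cycling cells. Fos was at 93.9 against 182 CPM and was found in 32.1% against 40.5% of cells after thinning, with 42% of B cells. Of 12 measured AP-1 and dissociation stress genes, 1 (Hsp90aa1, a chaperone) was at least 2-fold higher and 5 at least 2-fold lower over all cells (median log2 -0.87), with Jun at 76.9 against 240 CPM and Junb at 357 against 834 CPM. In non-cycling cells none of the 12 was 2-fold lower. Of 9 measured genes that restrain MAPK, calcium and cytokine signals, none was at least 2-fold higher over all cells and 1, Socs3, was at least 2-fold lower (19.6 against 57.2 CPM; list median log2 -0.53). In non-cycling cells 5 of 10 were higher and the median was 0.08. Cish, an inhibitor of cytokine signals, was at 21.4 against 3.31 CPM there (6.46-fold) and passed the filter only through the receptor-signal cells. Rgs1, a regulator of G protein signals, was at 36.1 against 93.7 CPM in non-cycling cells. In deep non-cycling cells 2 of 9 were at least 2-fold lower and none higher by that much (-0.08).

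NF-kB genes were more often at least 2-fold higher than the measured genes as a whole in non-cycling cells. Of 17 measured there, 10 were at least 2-fold higher (median log2 1.16), beside 14.4% of all measured genes. Over all cells 3 of 15 were (0.37), near the share of 15.4% over all genes. In deep non-cycling cells 5 of 16 were (0.75), beside 15.6%. In cycling cells 0 of 14 were (0.17), where only 2.2% of all measured genes were, so that count is no trait of NF-kB genes. Nfkbid (ENSMUSG00000036931), an IkB-type nuclear regulator of NF-kB whose upstream sequence is shown above, was at 85.2 against 35.6 CPM over all cells (2.40-fold, 2.06 to 2.77) and was found in 50 of 78 cells, with a median of 1 and at most 16 UMIs. Its ratio was 5.43 (4.57 to 6.40) in non-cycling cells, 1.20 (0.849 to 1.67) in cycling cells and 2.85 (2.09 to 3.81) in deep non-cycling cells; the difference between cycling and non-cycling cells was not tested. Nfkb2, an NF-kB subunit, was 3.43-fold higher in non-cycling and 3.06-fold in deep non-cycling cells, and Rel, the c-Rel subunit, 2.92-fold and 1.99-fold. Icam1, an adhesion molecule for LFA-1, was 3.65-fold higher in non-cycling cells, where 25 of 43 cells had it. The survival genes Bcl2a1b and Bcl2a1d were 3.55-fold and 4.90-fold higher over all cells, but they are near-identical copies whose reads may be split between them. Tnfaip3, an inhibitor of NF-kB, was at 76.5 against 132 CPM. After thinning, 26.9% of receptor-signal cells, 12.8% of other cells and 22% of B cells had Nfkbid.

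Receptors varied. Of 6 measured inhibitory receptors 3 were at least 2-fold higher over all cells (median log2 1.10), 2 of 6 in non-cycling cells (0.67), 1 of 7 in cycling cells (0.06) and 1 of 6 in deep non-cycling cells (0.25). The shares of all measured genes were 15.4, 14.4, 2.2 and 15.6% in the same order, so the last count is near its share. Over all cells Lag3 and Cd200 were under 20 CPM in the other cells. They passed the filter only through the receptor-signal cells, so their calls follow in part from it. Lag3 was at 32.6 against 12.2 CPM (2.68-fold, 2.09 to 3.40), but in cycling cells at 29.0 against 30.7 CPM. Cd160 was at 152 against 53.3 CPM (2.85-fold) and Cd200 at 26.5 against 7.61 CPM (3.48-fold), with 29.5% of its UMIs in 1 cell. Pdcd1, which encodes PD-1, was at 26.4 against 9.36 CPM in cycling cells (2.82-fold, 1.90 to 4.13), in 14 of 35 cells. None of 6 measured activation and costimulatory receptors reached 2-fold over all cells (0.13). In non-cycling cells 8 were measured, of which 7 were higher (0.55) and 2, Il2ra and Slamf1, reached 2-fold. These 2 were under 20 CPM in the other cells and passed the filter only through the receptor-signal cells. Their call thus follows from the filter and is no sign of a rise across the list. Between 8000 and 16000 UMIs 4 of 8 reached 2-fold (0.98). In non-cycling cells Il2ra, the high-affinity IL-2 receptor chain, was at 21.4 against 0.621 CPM (34.5-fold, 17.9 to 63.7), on 16 UMIs in 9 of 43 cells. Crtam, an adhesion receptor of activated CD8 T cells, was at 202 against 28.5 CPM in non-cycling cells (7.09-fold, 5.96 to 8.38), in 28 of 43 cells, and 5.33-fold higher (4.19 to 6.74) in deep non-cycling cells. None of the 14 receptor complex and proximal signalling genes, among them the CD3 chains and Lck, was 2-fold different (median log2 -0.34).

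Growth genes gave the most even pattern. All 20 ribosome biogenesis and growth genes were higher over all cells, 17 of them at least 2-fold (median log2 1.47), with a summed level of 12869 against 4758 CPM. All 20 were at least 2-fold higher in non-cycling cells (1.79) and in deep non-cycling cells (1.87), and 7 of 19 in cycling cells (0.88). Ncl, nucleolin, an abundant protein of the nucleolus, was at 1494 against 411 CPM (3.64-fold, 3.51 to 3.77), found in 78 of 78 cells with 1 to 366 UMIs and a median of 23.5. Hspd1, a mitochondrial chaperone, was at 603 against 144 CPM (4.20-fold, 3.97 to 4.44). Srm, spermidine synthase, was 3.83-fold higher and Polr1b, a subunit of the polymerase that makes ribosomal RNA, 6.28-fold higher in non-cycling cells. Unlike Xcl1, Ncl was spread over the set.

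Metabolic genes followed in part. All 12 measured glycolysis genes were higher over all cells, 7 at least 2-fold (median log2 1.33), with 5 at least 2-fold higher in non-cycling, 4 in deep non-cycling and 2 in cycling cells. Tpi1, triose phosphate isomerase, was at 221 against 48.5 CPM (4.56-fold) and Hk2, hexokinase 2, at 33.9 against 7.72 CPM (4.39-fold, 3.42 to 5.58). Ldha, lactate dehydrogenase A, was at 1001 against 342 CPM. Bcat1, which transaminates branched-chain amino acids, had the highest ratio of the genes covered by the naming rule, at 21.7 against 1.22 CPM (17.8-fold, 12.3 to 25.6), in 23 of 78 cells with at most 7 UMIs; in deep non-cycling cells the ratio was 25.8 (10.7 to 66.1) on 16 UMIs. Shmt1, a serine and folate enzyme, was 7.11-fold higher and Tmem97, a sterol-related membrane protein, 7.20-fold. Of 5 measured nutrient transporters 2 were at least 2-fold higher, Tfrc, the transferrin receptor (2.73-fold), and Slc16a1, a lactate carrier (2.39-fold).

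**Figure D3:**
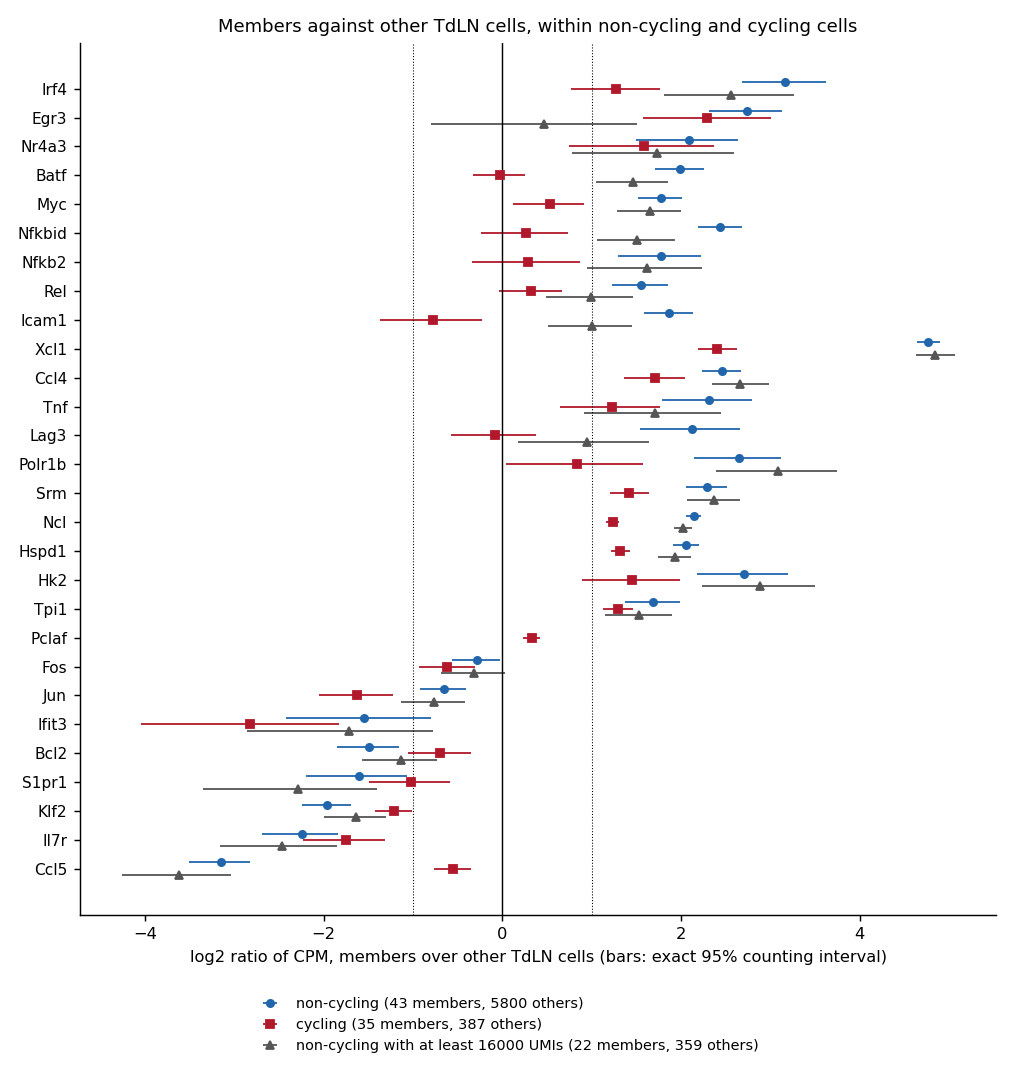
log2 ratio of CPM (x axis) of receptor-signal cells (members) over other TdLN cells for 28 genes, within non-cycling cells (circles), cycling cells (squares) and non-cycling cells with at least 16000 UMIs (triangles); bars are exact 95% counting intervals and dotted lines mark 2-fold. Xcl1 lies farthest to the right and Il7r, Klf2 and Ccl5 lie left of zero in all 3 comparisons, while Nfkbid, Icam1 and Lag3 differ between the non-cycling and cycling comparisons.

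Division genes were higher over all cells, beside the larger share of cycling cells. All 14 measured DNA replication genes and all 12 mitosis genes were at least 2-fold higher (medians 1.98 and 2.38), with Pclaf at 489 against 82.8 CPM and Ube2c at 316 against 50.2 CPM. Within cycling cells none of either list reached 2-fold (medians 0.40 and 0.14), and among all cells with at least 16000 UMIs none did. Mki67, Top2a, Birc5, Ccnb1, Pclaf and Rrm2 belong to these lists and also defined the cycling cells. Values within and outside the cycling cells were thus set in part by that definition. Outside the cycling cells DNA replication genes were still higher: 5 of 9 were at least 2-fold higher in non-cycling cells (1.09), with Mcm6 at 99.1 against 37.8 CPM, and 3 of 9 in deep non-cycling cells (0.91). Other division genes among the highest ratios over all cells were Ccna2, Ccnb1, Cdk1, Shcbp1, Sapcd2, Hist1h2ag and Hist1h3c, at 6.62-fold to 8.40-fold. Of the G1 cyclins and kinases Cdk4 and Cdk6 were 2.21-fold (2.03 to 2.41) and 2.17-fold (1.72 to 2.69) higher. The ratios of division genes thus depended on which cells were compared, whereas Xcl1, Irf4 and Ncl were at least 2-fold higher over all cells and in non-cycling, cycling and deep non-cycling cells.

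Genes of the resting state were lower. Il7r, the IL-7 receptor chain that resting T cells need for survival, was at 39.6 CPM in receptor-signal cells and 276 CPM in other cells, 6.97-fold lower (log2 -2.80), and in 33 of 78 cells against 78.2%. It was also lower in non-cycling cells (64.3 against 305 CPM), in cycling cells (27.7 against 93.2 CPM) and in deep non-cycling cells (41.9 against 231 CPM). Klf2, a factor that keeps T cells quiescent and maintains S1pr1, was at 136 against 554 CPM (4.06-fold lower) and at 142 against 442 CPM in deep non-cycling cells. S1pr1, the receptor for exit from the node, was at 31.7 against 106 CPM. After thinning, Klf2 was found in 29.5% of receptor-signal and 81.1% of other cells and Il7r in 16.7% and 57.9%, with 86.0% and 18.0% of B cells.

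The lists gave the same order. Of 10 measured quiescence and growth restraint genes 7 were at least 2-fold lower (median log2 -1.38), among them Txnip, Tsc22d3 and Klf3; in deep non-cycling cells 7 of 11 were. Of 6 naive-cell genes 4 were at least 2-fold lower (-1.52), with Igfbp4 at 18.3 against 93.7 CPM. Of 12 stem and memory genes 4 were (-0.49), among them Il7r, Bcl2 and S1pr1, whereas Tcf7, which encodes TCF-1, was at 225 against 276 CPM (log2 -0.29) and was found in 62.8% against 63.1% of cells after thinning, with 10% of B cells. Of 10 interferon response genes 5 were at least 2-fold lower (-0.99), with Ifit3 at 9.56 against 52.1 CPM; between 8000 and 16000 UMIs the list median was 0.15. Among the lowest ratios were also Gzmm, granzyme M (6.15-fold lower), Phf1, a chromatin factor (5.71-fold lower), and Bbc3, which encodes the pro-apoptotic PUMA (5.13-fold lower). Of 6 position and adhesion genes 2 were at least 2-fold lower (-0.65), and of 4 genes linked to anergy none reached 2-fold (0.04). Of the anergy genes 1 of 4, Ikzf2, was at least 2-fold higher in non-cycling cells (49.5 against 17.9 CPM), and 2 of 5 were at least 2-fold lower in deep non-cycling cells (-0.49).

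Cytotoxic effector genes did not go with the cytokines. Of 14 measured, 1 was at least 2-fold higher and 3 lower over all cells (median log2 -0.30), and 7 of 13 were lower in deep non-cycling cells (-1.22). Gzmb, granzyme B, was at 27.4 against 6.66 CPM, but it was found in 11 cells, 1 of which held 36.5% of its UMIs, and its direction turned under 3 other versions of the rule. Prf1, perforin, was at 15.7 against 47.3 CPM. S100a6, a calcium-binding protein of effector and memory cells, was at 58.7 against 121 CPM over all cells (log2 -1.05), at 85.0 against 255 CPM in cycling cells and at 4.02 against 99.9 CPM in non-cycling cells on 3 UMIs in 2 of 43 cells (ratio 0.0402, 0.00829 to 0.118).

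**Figure D4:**
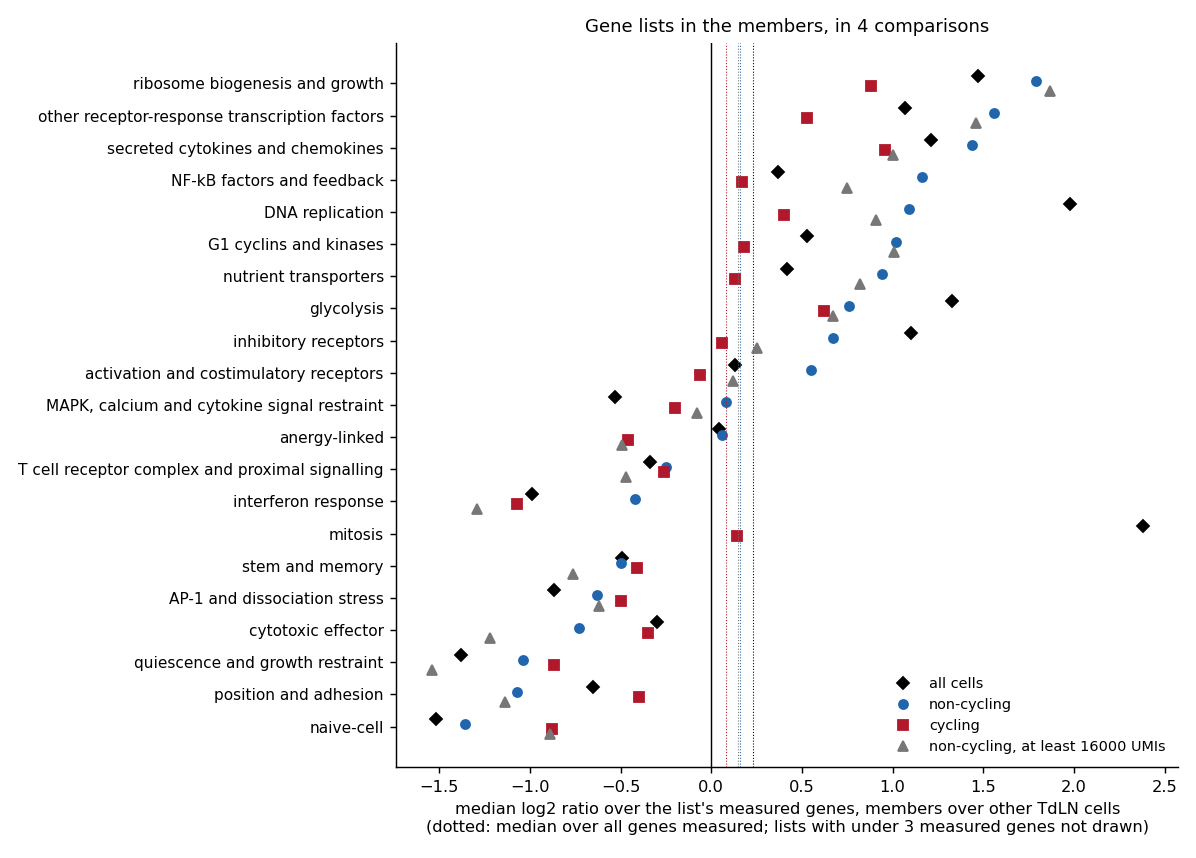
Median log2 ratio (x axis) of receptor-signal cells (members) over other TdLN cells over the measured genes of each list, for all cells, non-cycling cells, cycling cells and non-cycling cells with at least 16000 UMIs; dotted lines give the median over all measured genes, which lies between 0.08 and 0.23. Ribosome biogenesis lies to the right and the quiescence and naive-cell lists to the left in all 4, while mitosis lies far right over all cells (2.38) and near the dotted line within cycling cells (0.14).

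Several levels moved in steps with the number of rule genes in a cell. Xcl1 was at 30.7, 39.8, 48.5, 315 and 653 CPM in cells with 0, 1, 2, 3 and 4 or 5 rule genes, with the large step between 2 and 3 genes. That step rests on few cells and does not describe the typical cell. The 5 highest of the 78 receptor-signal cells held 64.7% of the set's Xcl1 UMIs, and the median was 1 UMI. Irf4 ran through 5.09, 9.79, 18.5, 35.8 and 48.3 CPM, Ncl through 363, 454, 673, 1143 and 2097 CPM and Il7r through 313, 232, 132, 57.9 and 8.25 CPM. Other genes did not climb at each step: with 3 and with 4 or 5 rule genes Nfkbid was at 86.1 and 83.7 CPM, Myc at 97.8 and 83.7 CPM and Egr3 at 39.9 and 36.5 CPM. These 5 groups held 4327, 1385, 254, 57 and 21 cells, with median depths of 9445, 10344, 12180, 21851 and 34064 UMIs and cycling shares of 4.18, 9.82, 22, 38.6 and 61.9%. Among cells with at least 16000 UMIs Xcl1 was at 33.6, 40.1, 38.2, 353 and 522 CPM, Ncl at 392, 572, 784, 1151 and 2104 CPM and Il7r at 198, 132, 91.4, 45.6 and 8.69 CPM. In the same deep cells Nfkbid was at 26.1, 28.0, 41.5, 36.0 and 67.0 CPM and Egr3 at 4.95, 6.45, 15.0, 8.01 and 37.2 CPM, each lower with 3 than with 2 rule genes. Median depth in these deep cells ran from 20151 UMIs with 0 rule genes to 43765 UMIs with 4 or 5, and the cycling share from 37.6 to 72.2%. Depth and the cycling share rise with the number of rule genes in both, and their part in these steps was not tested.

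**Figure D5:**
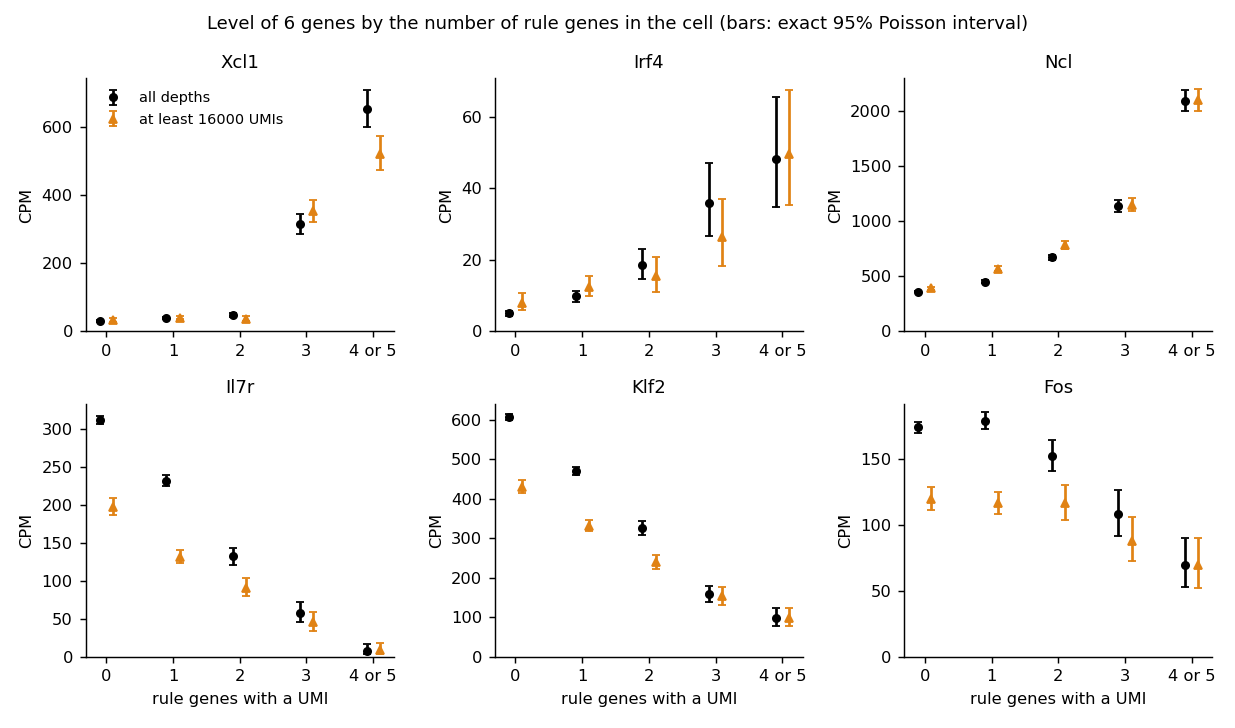
CPM (y axes) of Xcl1, Irf4, Ncl, Il7r, Klf2 and Fos in TdLN cells with 0, 1, 2, 3 and 4 or 5 rule genes (x axes), for cells of all depths and for cells with at least 16000 UMIs; bars are exact 95% Poisson intervals. Xcl1 stays under 50 CPM up to 2 rule genes and is above 300 CPM from 3 on, while Ncl climbs and Il7r and Klf2 decline at each step. The bars leave out spread between cells, and 5 of the 78 receptor-signal cells held 64.7% of their Xcl1 UMIs.

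The rule was not set on the PBMC and memory cells, which allow the same genes to be read there. In the memory library the 13 cells with at least 2 rule genes had Xcl1 at 492 CPM against 38.3 CPM in the other memory cells (12.9-fold, 10.4 to 15.7). That value rests on 97 UMIs in 6 of 13 cells, and how they split between the cells was not examined. Ncl was 2.32-fold (1.99 to 2.69) and Hspd1 2.78-fold (2.19 to 3.49) higher in these memory cells, and Il7r was 3.09-fold lower. In the PBMC library the 11 such cells had no Xcl1 UMI, against 6.53 CPM in the other PBMC cells (interval of the ratio up to 3.98), with Ncl at 1.12-fold (0.841 to 1.47) and Klf2 at 1.03-fold (0.890 to 1.18). In the TdLN the 332 cells with at least 2 rule genes had Xcl1 5.54-fold (5.16 to 5.95) and Ncl 2.44-fold (2.38 to 2.51) higher and Il7r 2.86-fold lower. These 332 cells include the 78 receptor-signal cells, which held 1011 of their 1218 Xcl1 UMIs. The 254 TdLN cells with exactly 2 rule genes had Xcl1 at 48.5, Ncl at 673 and Il7r at 132 CPM. The 5933 TdLN cells outside the 332 had 33.4, 393 and 285 CPM. These PBMC and memory cells had median depths of 12234 and 11901 UMIs, against 7077 and 9952.5 in the cells around them. Summed over cells, Xcl1 and Ncl were higher and Il7r lower in the TdLN and memory cells with at least 2 rule genes. In the TdLN most of that Xcl1 came from the receptor-signal cells. The PBMC cells had Il7r 1.75-fold lower, without a detectable difference in Xcl1 or Ncl at this depth. For Irf4 and Nfkbid the memory cells held too few counts to show whether they followed this order. Irf4 was 3.91-fold higher (3.25 to 4.67) in the TdLN cells and 9.91-fold (1.18 to 37.2) on 2 UMIs in the PBMC cells. The memory cells had no Irf4 UMI, against 0.172 CPM in the other memory cells (interval of the ratio up to 128). Nfkbid was 2.02-fold higher (1.82 to 2.23) in the TdLN cells, at 1.90-fold (0.516 to 4.89) on 4 UMIs in the PBMC cells and at 0.538-fold (0.0650 to 1.95) on 2 UMIs in the memory cells.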

How the data were processed

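Single-cell RNA counts of sorted CD8 T cells from 3 libraries were used. The deposited files hold raw UMI counts per gene and barcode for 31053 mouse genes; per the submitters' processing notes they were made with Cell Ranger 3.1.0 on mm10. The filter kept cells of 500 genes or more in which mitochondrial genes gave no more than 10% of counts. The cells and the gene lists (33 lists, 341 genes, of which 1 was not in the files) were chosen with earlier results of these data known. Counts were summed over cells and divided by the summed total (CPM); ratios carry exact 95% conditional binomial intervals, CPM exact Poisson intervals and shares exact Clopper-Pearson intervals; for a share of 0 the limit given is 3 counts of the total. All cover counting error only. With 1 library per group no test was run. Where a gene had no count, a floor of 3 counts over the population was used.

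Genes named were the 14 highest and 12 lowest ratios (without rule, exclusion, ribosomal, mitochondrial, predicted and segment genes), Xcl1, Nfkbid, up to 4 genes of each list and up to 3 of each list of another cell type; the same highest and lowest sets within non-cycling and cycling cells, and further list members, were named after their values were seen. Thinning drew 4000 UMIs per cell, keeping 78 of 78 receptor-signal cells, 6000 of 6187 other cells and 50 of 76 B cells. Scrublet in scanpy marked 0 of 6265 cells as doublets and so had not worked; no cell was removed by it, and the 5% of cells (313) with the highest scores held 0 receptor-signal cells. Gene identifiers were placed with GENCODE M21 (31011 matched), and upstream sequences are from RefSeq, GRCm38.p6; the windows of Cd83, Egr3 and Crtam were not used here. On simulated counts the ratios over all cells recovered 100 of 100 genes set 2.5-fold higher and 99 of 100 set 5-fold lower. Of the unchanged genes of 4586, 0 were called. In deep non-cycling cells 92 and 99 were recovered with 93 unchanged genes of 4723 called. The simulated counts were Poisson draws from a pooled profile, without spread between cells. They check the calculation only and cannot show how far single cells move a ratio. Alternatives changed the scaling (edgeR 4.0.16 TMM factors only), the CPM filter, the cell filter, the rule and the cells compared. Python 3.11.15, numpy 2.4.6, pandas 2.3.3, scipy 1.17.1, scanpy 1.11.5, matplotlib 3.10.9 and R 4.3.3 were used. Some genes and a sort marker are not reported here.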

Additional observations from a re-analysis of the deposited data

How the results depend on the processing

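Of 1905 values of the 91 named genes at least 2-fold either way under 22 alternatives, 1874 kept their direction. The 24 values counted as reversed are those of genes that reached 20 CPM over all cells. Sign changes of genes under 20 CPM, such as Ciita and Mitf, are not in that count. The 783 genes at least 2-fold higher became 284 at a filter of 100 CPM, 246 with at least 16000 UMIs and 110 in cycling cells only. The 259 at least 2-fold lower became 737 with totals without ribosomal and mitochondrial genes, 667 at 5 CPM, 61 at 100 CPM, 701 and 463 with the rule after thinning to 4000 and 10000 UMIs, 523 with at least 4 rule genes, 440 with the rule without Nr4a1, 483 in non-cycling cells with at least 16000 UMIs, 151 with at least 16000 UMIs and 87 in cycling cells only. The 78 TdLN cells became 48 under a stricter cell filter (1000 genes, 5% mitochondrial), 21 with at least 4 rule genes, 10 and 28 with the rule after thinning to 4000 and 10000 UMIs, and 44, 35, 39 and 42 without Nr4a1, Tnfrsf9, Irf8 or Cd83; the 2 memory cells became 0 with at least 4 rule genes, and 1 and 0 after the 2 thinnings.

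Reversed log2 ratios with the rule after thinning to 10000 UMIs were -0.35 for Hist1h3c, -0.14 for Ska1, -0.33 for Shcbp1, -0.04 for Ccnb1, -1.31 for Cdk1, -0.08 for Pclaf, -0.41 for Rrm2, -0.50 for Tyms and -1.26 for Ube2c, and -0.72 for the mitosis median. After thinning to 4000 UMIs they were -1.52 for Ccnb1 and -0.08 for Tyms, with a signal restraint median of 0.14. Between 8000 and 16000 UMIs they were -0.82 for Tyms, 0.39 for Ifit1 and 0.21 for Itga4, with medians of 0.34 for signal restraint, 0.15 for interferon and 0.11 for position genes. Gzmb was -0.32 with at least 4 rule genes, -0.73 without Tnfrsf9 and -0.92 without Irf8. Ccl8 (0.84) and Cd74 (1.08) reversed with the same exclusions in the other cells, H2-Eb1 (0.94) and Cd74 (1.46) without cells with MHC class II genes, and Lag3 (-0.08) in cycling cells. Rrm2 was -0.05 and Cd74 0.11 in non-cycling cells with at least 16000 UMIs, the restraint median was 0.08 without cycling cells, and the G1 and position medians were -0.05 and 0.10 at 100 CPM. The causes were not tested. No paired analysis was possible because each group is 1 library.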

Other observations

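The naming rule did not cover predicted genes. Of these, Gm26710 and Gm26737, chosen after their values were seen, had the highest ratios of the measured genes, and each rested on 1 cell. Gm26710 (ENSMUSG00000097013, chr10:80578647-80580677 on GRCm38) was at 28.3 CPM in receptor-signal cells and 0.297 CPM in other TdLN cells, with 65 UMIs in 3 of 78 cells and 63 of them in a single cycling cell. Gm26737 (ENSMUSG00000097467, chr9:44112923-44121960) was at 38.7 against 0.640 CPM, with 89 UMIs in 2 of 78 cells and 84 of them in 1 cycling cell; the highest other TdLN cell had 35 UMIs. Both values therefore describe single cells and not the set.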
